A study of Mus musculus with 10 samples.

Results

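The 10 genes Gpd1, Gpam, Gpat3, Gpat4, Agpat2, Lpin1, Lpin2, Lpin3, Dgat1 and Dgat2 encode the enzymes that build triglycerides through the glycerol-3-phosphate pathway. They were chosen by name, as 10 of the 55414 genes counted, and all 10 passed the filter on low counts that left 17690 genes for testing. RNAseq was done on whole interscapular brown adipose tissue (iBAT) of 5 Cre- and 5 Cre+ mice. All mice were C57BL/6J, homozygous for the floxed RetSat allele (flox/flox), fed normal chow and 12 to 14 weeks old, and Cre+ mice additionally carried Ucp1-Cre, which expresses Cre recombinase from the promoter of Ucp1, the uncoupling protein of brown adipocytes. RetSat, retinol saturase, is an oxidoreductase of the endoplasmic reticulum. Deletion is limited to cells that use the Ucp1 promoter, so the other cells of iBAT keep intact alleles, and the Cre- mice do not control for Cre itself. Levels are given as CPM, the counts of a gene scaled to a common library size with TMM factors, and a log2 fold change is that of Cre+ against Cre- mice. In bulk tissue, fewer cells of a type and less RNA per cell cannot be told apart.

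Triglyceride synthesis starts from glycerol-3-phosphate, which Gpd1 makes in the cytosol from the glycolytic intermediate dihydroxyacetone phosphate. Glycerol-3-phosphate acyltransferases (GPAT) add a fatty acid to give lysophosphatidic acid, acylglycerol-phosphate acyltransferases (AGPAT) add another to give phosphatidic acid, lipins remove the phosphate to leave diacylglycerol, and diacylglycerol acyltransferases (DGAT) attach the last fatty acid. Brown adipocytes keep the product in many small lipid droplets, which lipolysis opens as a source of fatty acids for heat production.

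RefSeq start sites of GRCm38.p6 were available for 6 of the genes, in 10 windows that run from 250 bases before to 50 after a start, and Gpat4, Dgat1, Dgat2 and Gpd1 had none. The windows were searched on both strands for AGGTCA, the core element that many nuclear receptors bind, often as a repeat, for CACGTG, an E-box, and for CCAAT, and none of these motifs overlapped another in the windows shown. AGGTCA occurred in 2 of the 10 windows, CACGTG in 2 and CCAAT in 2, against 16.3%, 7.2% and 37.4% of 32851 windows of the same length from all genes. Shown are the 250 bases before the start in windows of Gpam and Lpin2, because of the genes with a window these have the smallest p for genotype below. Of Lpin2 only window 1 is shown. Lpin2 window 2 held none of the motifs, and Lpin2 window 3 (chr17:71204404-71204703, plus strand) held CCAAT on the opposite strand at positions 18, 86 and 194. Capitals mark CCAAT, read here from the opposite strand, in the first Gpam sequence (chr19:55127239-55127488, minus strand), AGGTCA in the second (chr19:55099478-55099727, minus strand) and CACGTG in Lpin2 (chr17:71183282-71183531, plus strand). A match describes the letters and not a bound site.
Gpam window 1: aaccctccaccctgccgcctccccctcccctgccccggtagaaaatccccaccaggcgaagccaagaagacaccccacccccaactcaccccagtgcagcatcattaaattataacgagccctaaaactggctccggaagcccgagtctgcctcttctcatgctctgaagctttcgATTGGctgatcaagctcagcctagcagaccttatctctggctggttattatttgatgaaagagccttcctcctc
Gpam window 2: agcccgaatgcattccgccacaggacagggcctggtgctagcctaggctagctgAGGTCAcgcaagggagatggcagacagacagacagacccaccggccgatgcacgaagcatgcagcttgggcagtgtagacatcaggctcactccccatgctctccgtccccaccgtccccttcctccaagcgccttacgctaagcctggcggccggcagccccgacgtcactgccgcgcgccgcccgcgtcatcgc
Lpin2 window 1: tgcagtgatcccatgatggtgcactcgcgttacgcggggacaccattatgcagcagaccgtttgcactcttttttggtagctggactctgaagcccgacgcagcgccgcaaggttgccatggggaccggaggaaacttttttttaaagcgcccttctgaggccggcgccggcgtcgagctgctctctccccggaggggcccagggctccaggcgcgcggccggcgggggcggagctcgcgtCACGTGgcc

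Libraries held 91903095 to 132499312 counts in Cre- and 96991071 to 110293494 in Cre+ mice, and each gene was covered by at least 345 counts (Lpin3) and at most 923093 (Gpd1). The deleted gene RetSat lay between 151 and 255 CPM in Cre- mice and at most at 39.0 CPM in Cre+ mice, and its log2 fold change was -2.95 (SE 0.24) with an adjusted p of 0.00402 by edgeR's quasi-likelihood F test. All 12 brown adipocyte markers were above 1 CPM in every library, and their sum was 16228 to 20087 CPM in Cre- and 16165 to 19902 CPM in Cre+ mice. The sum of 12 skeletal muscle markers was 576 CPM in Cre- 2 and 284 CPM in Cre+ 4 and 1.44 to 21.1 CPM in the other libraries, and 7 immediate early genes summed to 677 CPM and 424 CPM in the same libraries and 74.0 to 307 CPM in the others. Macrophage markers (6 genes) summed to 40.3 to 55.2 CPM in Cre- and 36.3 to 61.8 CPM in Cre+ mice, endothelial markers (4 genes) to 345 to 436 CPM and 322 to 408 CPM, fibroblast markers (4 genes) to 371 to 692 CPM and 353 to 831 CPM, and B and T cell markers (5 genes) to 1.22 to 1.83 CPM and 1.36 to 2.51 CPM. The part of these markers in the values below was not tested. Without Cre- 2 and Cre+ 4, the log2 fold changes of the genes with the smallest p were 0.30 for Gpam, 0.26 for Dgat1 and -0.34 for Lpin2, close to the values with all libraries.

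None of the 10 genes differed between genotypes by edgeR at an adjusted p under 0.05, a threshold that 29 of 17690 genes (0.164%) passed, 0.0339% as higher and 0.13% as lower in Cre+ mice. DESeq2 called 1 of the 10, Lpin2 (adjusted p = 0.0386), against 2.28% of the genes it tested, and limma voom called 0, against 0.837%. At an unadjusted p under 0.05 by edgeR, Dgat1 and Gpam were higher in Cre+ mice, where 6.4% of all genes were, and Lpin2 was lower, where 5.95% were. Log2 fold changes of 7 genes were above 0 and of 3 below, compared with 50.3% above 0 among all genes tested, and their median was 0.15 against 0.00 for all genes. Among the 12 brown adipocyte markers 9 were above 0 and 3 below, with a median of 0.11, so the direction was not particular to the 10 genes. Lpin2 was the 1 gene of the 10 whose genotypes did not overlap, which held for 2.67% of all genes. The spread between mice of a genotype, as the SD of log2 CPM, was smallest for Lpin2 (0.11) and largest for Gpat3 (0.68, above 92.5% of all genes tested), with a median over all genes of 0.24.

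**Figure D1:**
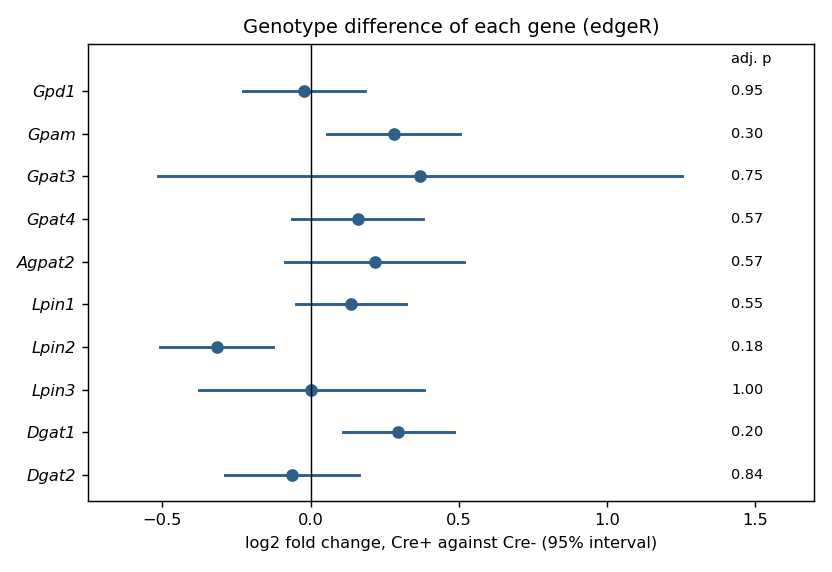
Log2 fold change of Cre+ against Cre- mice (points) with its 95% interval (lines) and the adjusted p (right) from edgeR for each of the 10 genes, n = 5 per genotype. Intervals of Gpam and Dgat1 lie above 0 and that of Lpin2 below 0, the interval of Gpat3 is the widest (-0.52 to 1.25), and no adjusted p is under 0.05.

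Transcript levels of the pathway spanned a wide range in iBAT. Divided by the length of merged exons, Gpd1 had a mean of 2506 CPM per kb over the 10 libraries and ranked 14 of the 17690 genes tested, Dgat2 815 CPM per kb (rank 40) and Agpat2 625 CPM per kb (rank 52). Dgat1 (103 CPM per kb, rank 353), Gpat4 (102 CPM per kb, rank 354) and Gpam (97.2 CPM per kb, rank 370) were close to each other, followed by Lpin1 with 53.2 CPM per kb (rank 655). The least abundant were Gpat3 with 4.13 CPM per kb (rank 5960), Lpin3 with 1.21 CPM per kb (rank 9788) and Lpin2 with 0.971 CPM per kb (rank 10372). Of the 3 GPAT and the 3 lipin genes among the 10, Gpat3, Lpin2 and Lpin3 thus contributed little of the transcript. Together the 10 genes took 1.10% to 1.43% of all counts in Cre- and 1.30% to 1.52% in Cre+ mice, of which Gpd1 alone took 0.569% to 0.828% over all libraries.

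The order of neighbouring levels was tested by a two-sided exact sign-flip permutation test of the log2 ratio within each library (n = 10 libraries of both genotypes, adjusted over 9 pairs). Pairs and their direction were taken from the means of these same libraries, so the p-values do not test an order set beforehand. Gpd1 lay above Dgat2 by 3.08-fold in 10 of 10 libraries (log2 ratio 1.62 ± 0.20 SD, adjusted p = 0.00293, exact permutation test, from the smallest p the test can give, 0.00195). Dgat2 lay above Agpat2 by 1.32-fold in 9 of 10 libraries (adjusted p = 0.0126, exact permutation test), and Agpat2 above Dgat1 by 6.05-fold in 10 of 10. Dgat1 over Gpat4 missed the threshold (log2 ratio 0.00 ± 0.15 SD, adjusted p = 0.994, exact permutation test). Gpat4 over Gpam also missed it (0.08 ± 0.19 SD, adjusted p = 0.253, exact permutation test). Each held in 6 of 10 libraries. Gpam over Lpin1 (1.82-fold), Lpin1 over Gpat3 (14.1-fold), Gpat3 over Lpin3 (3.17-fold) and Lpin3 over Lpin2 (1.23-fold) held in all 10 libraries, and these 4 pairs and Agpat2 over Dgat1 each had an adjusted p of 0.00293 by the same exact test. The order depends on the division by length, since by CPM alone Lpin2 lay above Lpin3 by 2.69-fold and Lpin1 above Dgat1 by 1.69-fold, each in 10 of 10 libraries. In the 5 Cre- mice alone the test cannot go below 0.0625, so 0 of 9 pairs could pass, and the ratio of Gpd1 to Dgat2 was 3.02-fold and higher in 5 of 5. In these mice Lpin3 lay above Lpin2 by 1.11-fold in 5 of 5, and Gpat4 above Dgat1 by 1.05-fold in 3 of 5.

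**Figure D2:**
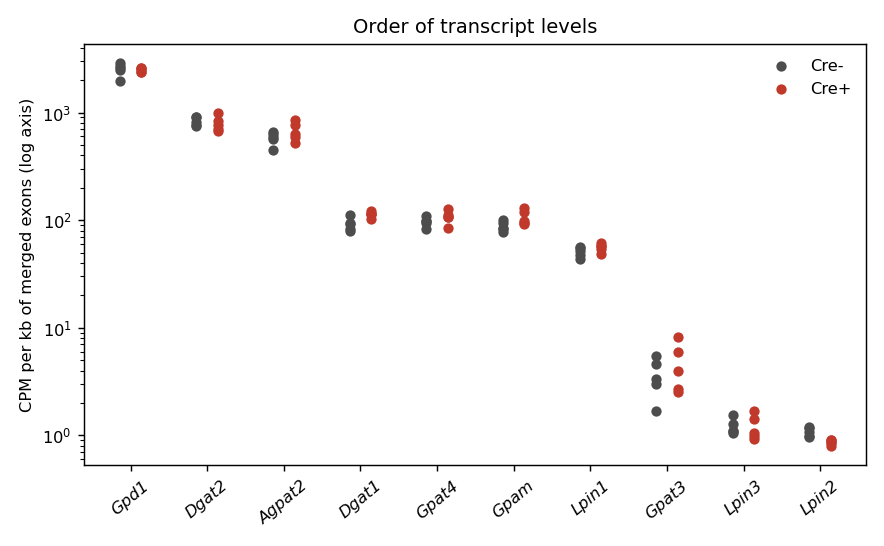
CPM per kb of merged exons (log axis) of the 10 genes in each Cre- (grey) and Cre+ (red) library, ordered by their mean over all 10 libraries. Gpd1, Dgat2 and Agpat2 lie at 447 CPM per kb or above in every library, while Lpin3 and Lpin2 lie near 1.

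Gpd1, the cytosolic enzyme that supplies glycerol-3-phosphate (ENSMUSG00000023019.13, chr15:99615396-99622886 of GRCm39, plus strand), had nearly equal means in both genotypes. Its CPM were 5776, 8036, 7723, 7348 and 8518 in Cre- 1 to 5 and 7653, 6987, 7443, 7109 and 7624 in Cre+ 1 to 5. Cre+ mice all lay within the range of Cre- mice, whose lowest value came from Cre- 1. Means were 7480.2 ± 1045 and 7363 ± 302 CPM (SD, n = 5 each), a log2 fold change of -0.02 (SE 0.09, 95% interval -0.23 to 0.18, adjusted p = 0.948 by edgeR), and the coefficient of variation was 14.0% in Cre- and 4.10% in Cre+ mice. Without Cre- 2 and Cre+ 4 the log2 fold change was 0.02, and without Cre- 1 it was -0.10. The span of Gm16537 (8.58 CPM, other strand) overlaps that of Gpd1. Since strand was not used in counting, reads from any shared exons cannot be assigned with certainty, and whether exons overlap was not tested.

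Glycerol-3-phosphate acyltransferases carry out the first acylation. Gpam encodes the enzyme of the mitochondrial outer membrane (ENSMUSG00000024978.12, chr19:55055700-55115670 of GRCm39, minus strand), and Gpat3 (ENSMUSG00000029314.15, chr5:100993579-101046968, plus strand) and Gpat4 (ENSMUSG00000031545.7, chr8:23661281-23698362, minus strand) encode those of the endoplasmic reticulum. Gpam had 521, 554, 628, 562 and 661 CPM in Cre- 1 to 5 and 791, 860.3, 660.1, 626 and 616 CPM in Cre+ 1 to 5. All 5 Cre+ mice were above the mean of Cre- mice, but 2 of 5, Cre+ 1 and Cre+ 2, exceeded the highest Cre- mouse. Cre- mice had a mean of 585 ± 57.3 CPM and Cre+ mice of 711 ± 109 CPM (SD, n = 5 each), which is 1.21-fold. By edgeR the log2 fold change was 0.28 (SE 0.10, 95% interval 0.06 to 0.50) with an unadjusted p of 0.0181 and an adjusted p of 0.296. DESeq2 and voom gave adjusted p-values of 0.238 and 0.218 for Gpam. The difference of Gpam kept its sign in all 20 alternatives tried, from 0.20 without Cre+ 2 to 0.37 without the 3 Cre+ libraries whose identifier carries an added letter, with adjusted p-values by edgeR, DESeq2 or voom of 0.139 to 0.521. No Cre- library carries such a letter and no label says what it marks, so its part cannot be fully separated from genotype.

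Gpat4 had a level close to that of Gpam. It had 632, 553, 656, 734 and 658 CPM in Cre- 1 to 5 and 856, 752, 570.1, 714 and 719 CPM in Cre+ 1 to 5, so the groups overlapped and 2 of 5 Cre+ mice were above all Cre- mice. Means were 647 ± 65.0 and 722 ± 102 CPM (SD, n = 5 each), a log2 fold change of 0.16 (SE 0.10, 95% interval -0.06 to 0.38, adjusted p = 0.567 by edgeR). Without the 3 lettered Cre+ libraries (Cre+ 1, 4 and 5) it was 0.03. Gpat3 was low and the most variable of the 10 genes, with 19.0, 5.94, 11.7, 16.0 and 10.4 CPM in Cre- 1 to 5 and 28.4, 20.7, 9.49, 14.0 and 8.94 CPM in Cre+ 1 to 5. Its highest mouse was Cre+ 1 and its lowest Cre- 2, which was the library with most muscle transcripts, and they were 4.78-fold apart. Means were 12.6 ± 5.05 and 16.3 ± 8.25 CPM (SD, n = 5 each), a log2 fold change of 0.37 (SE 0.39, 95% interval -0.52 to 1.25, adjusted p = 0.750 by edgeR). For Gpat3 single libraries decided the size, which was 0.07 without Cre+ 1, 0.19 without Cre- 2, 0.24 without Cre- 2 and Cre+ 4 and 0.56 without Cre- 1. On the scale of CPM per kb, Gpam made up 46.7% ± 3.32 (SD, n = 5) of the sum of the 3 GPAT genes in Cre- and 48.6% ± 3.60 in Cre+ mice, Gpat4 51.4% ± 2.69 and 49.3% ± 3.61, and Gpat3 1.91% ± 0.784 and 2.05% ± 0.774. The span of Gpat3 overlaps that of 4930458D05Rik (1.03 CPM, other strand). Whether their exons overlap, and whether this affects the low counts of Gpat3, was not tested.

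Agpat2 adds the fatty acid that turns lysophosphatidic acid into phosphatidic acid, and its loss causes generalized lipodystrophy in mice and humans (ENSMUSG00000026922.14, chr2:26483069-26494429 of GRCm39, minus strand). CPM were 953, 1406, 1209, 1336 and 1252 in Cre- 1 to 5 and 1333, 1248, 1822, 1104 and 1645 in Cre+ 1 to 5. The groups overlapped, with Cre- 1 lowest and Cre+ 3 and Cre+ 5 above every Cre- mouse. Means were 1231 ± 173 and 1430.4 ± 295 CPM (SD, n = 5 each), a log2 fold change of 0.22 (SE 0.14, 95% interval -0.09 to 0.52, adjusted p = 0.566 by edgeR), which was 0.11 without Cre+ 3 and 0.35 without Cre- 2 and Cre+ 4 (adjusted p = 0.242 by edgeR). The span of Egfl7, an endothelial gene of 74.6 CPM on the other strand, overlaps that of Agpat2. Reads from any shared exons could not be told apart, and whether exons overlap was not tested.

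**Figure D3:**
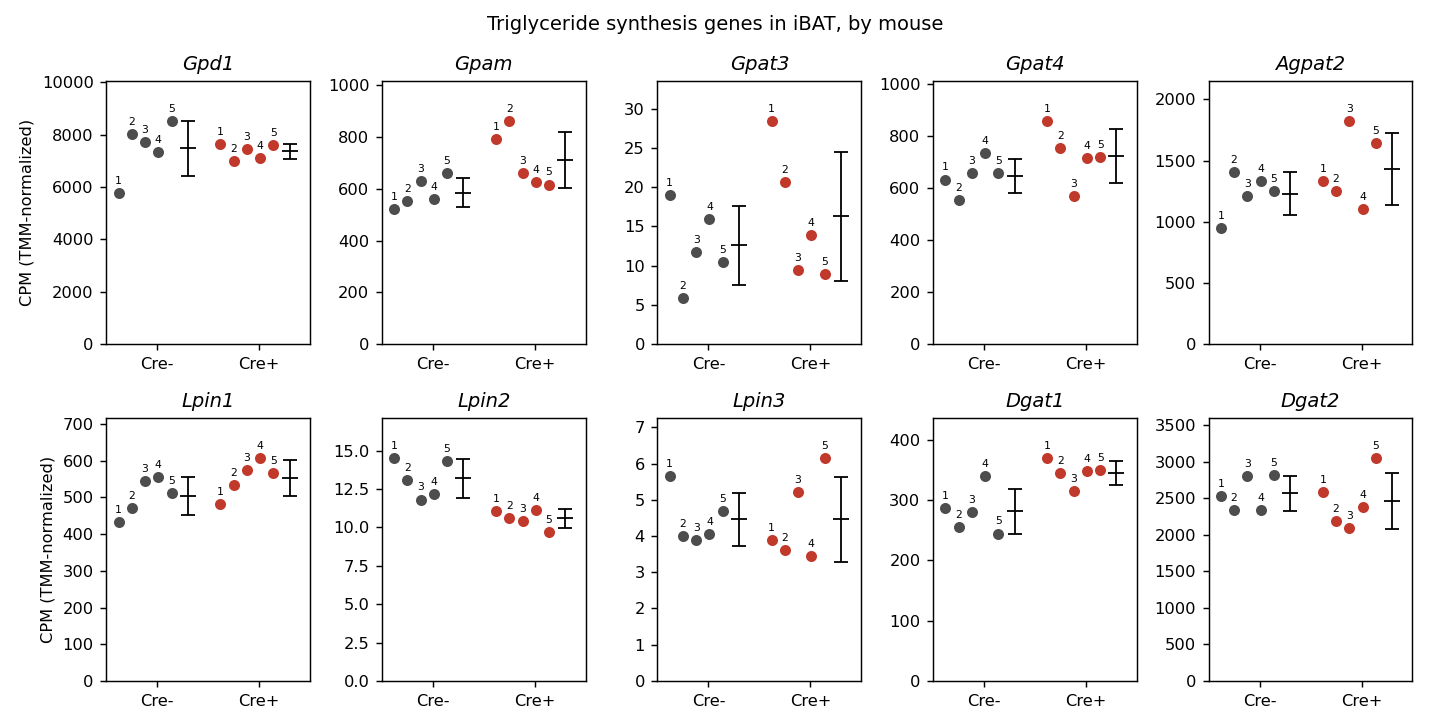
TMM-normalized CPM of the 10 genes in each Cre- (grey) and Cre+ (red) mouse, with the replicate number above each point and the mean ± SD (n = 5) as a bar beside the points, each axis starting at 0. For Lpin2 all Cre+ mice lie below all Cre- mice, for Dgat1 4 of 5 Cre+ mice lie above all Cre- mice, and for the other genes the groups overlap more widely.

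Lipins are phosphatidate phosphatases that also act as transcriptional coregulators, and Lpin1 is the member on which fat storage of mouse adipose tissue depends. Lpin1 (ENSMUSG00000020593.17, chr12:16585670-16696967 of GRCm39, minus strand) made up 95.6% ± 0.945 (SD, n = 5) of lipin CPM per kb in Cre- and 96.4% ± 0.484 in Cre+ mice. It had 433, 470.1, 546, 556 and 511 CPM in Cre- 1 to 5 and 481, 534, 576, 608 and 566 CPM in Cre+ 1 to 5, with 3 of 5 Cre+ mice above all Cre- mice. Means were 503 ± 51.7 and 553 ± 47.8 CPM (SD, n = 5 each), a log2 fold change of 0.14 (SE 0.09, 95% interval -0.05 to 0.32, adjusted p = 0.552 by edgeR), which was 0.08 without Cre- 2 and Cre+ 4.

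Lpin2 was the gene with the smallest p of the 10 (ENSMUSG00000024052.18, chr17:71489555-71556812 of GRCm39, plus strand). It had 14.5, 13.1, 11.8, 12.1 and 14.4 CPM in Cre- 1 to 5 and 11.1, 10.6, 10.4, 11.1 and 9.67 CPM in Cre+ 1 to 5. Every Cre+ mouse lay below every Cre- mouse, with a narrow gap between Cre+ 4 and Cre- 3, and 1.47% of all genes tested had Cre+ mice entirely below Cre- mice. Means were 13.2 ± 1.24 and 10.6 ± 0.588 CPM (SD, n = 5 each), 0.802-fold. By edgeR the log2 fold change was -0.32 (SE 0.09, 95% interval -0.51 to -0.13) with an unadjusted p of 0.00320 and an adjusted p of 0.176. Lpin2 fell by DESeq2 (log2 fold change -0.32, adjusted p = 0.0386), where 1.22% of genes did, and had an adjusted p of 0.128 by voom. Its log2 fold change was negative in all 20 alternatives, from -0.36 without Cre- 3 to -0.24 when libraries were scaled to total counts. On the scale of CPM per kb, Lpin2 was the least abundant of the 10, and its share of lipin transcripts was 2.06% ± 0.366 (SD, n = 5) in Cre- and 1.51% ± 0.179 in Cre+ mice.

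Lpin3 (ENSMUSG00000027412.13, chr2:160722590-160747922 of GRCm39, plus strand) had 5.65, 4.01, 3.88, 4.04 and 4.69 CPM in Cre- 1 to 5 and 3.90, 3.61, 5.21, 3.44 and 6.16 CPM in Cre+ 1 to 5. Means were 4.46 ± 0.739 and 4.46 ± 1.17 CPM (SD, n = 5 each), a log2 fold change of 0.00 (SE 0.18, 95% interval -0.38 to 0.38, adjusted p = 0.997 by edgeR). Cre+ mice thus lay on both sides of the Cre- range, 2 below and 1 above it, and the sign depended on the libraries used, from -0.14 without Cre+ 5 to 0.10 without Cre- 1. Lpin3 held 2.32% ± 0.593 and 2.09% ± 0.515 of lipin CPM per kb in Cre- and Cre+ mice.

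Diacylglycerol acyltransferases make the triglyceride itself. Dgat1 and Dgat2 are unrelated in sequence, the former a multipass protein of the endoplasmic reticulum and the latter found there and on lipid droplets. Dgat1 (ENSMUSG00000022555.13, chr15:76386215-76396153 of GRCm39, minus strand) had 287, 255, 281, 339.6 and 245 CPM in Cre- 1 to 5 and 370.1, 345, 314, 348 and 349.8 CPM in Cre+ 1 to 5. All 5 Cre+ mice were above the Cre- mean and 4 of 5 above the highest Cre- mouse, Cre- 4, and Cre+ 3 was the exception. Means were 281 ± 36.9 and 346 ± 20.0 CPM (SD, n = 5 each), 1.23-fold. By edgeR the log2 fold change was 0.30 (SE 0.09, 95% interval 0.11 to 0.48) with an unadjusted p of 0.00461 and an adjusted p of 0.197. The adjusted p of Dgat1 was 0.101 by DESeq2 and 0.141 by voom. Without Cre- 4 the log2 fold change of Dgat1 was 0.38, and without the 3 lettered Cre+ libraries it was 0.22 (adjusted p = 0.602 by edgeR), the largest and smallest of the 20 alternatives.

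Dgat2 (ENSMUSG00000030747.6, chr7:98802865-98831926 of GRCm39, minus strand) had 2534, 2333, 2805, 2344 and 2821 CPM in Cre- 1 to 5 and 2585, 2188, 2087, 2379 and 3053 CPM in Cre+ 1 to 5. The lowest 2 mice and the highest 1 were Cre+, so the Cre- range lay within the Cre+ range. Means were 2567 ± 238 and 2458 ± 383 CPM (SD, n = 5 each), a log2 fold change of -0.06 (SE 0.10, 95% interval -0.29 to 0.16, adjusted p = 0.844 by edgeR). It was -0.27 (adjusted p = 0.442 by edgeR) without the 3 lettered Cre+ libraries and 0.01 when libraries were scaled to total counts, which moved the median of all genes by 0.07. Dgat2 made up 90.0% ± 1.74 (SD, n = 5) of DGAT CPM per kb in Cre- and 87.4% ± 1.29 in Cre+ mice.

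**Figure D4:**
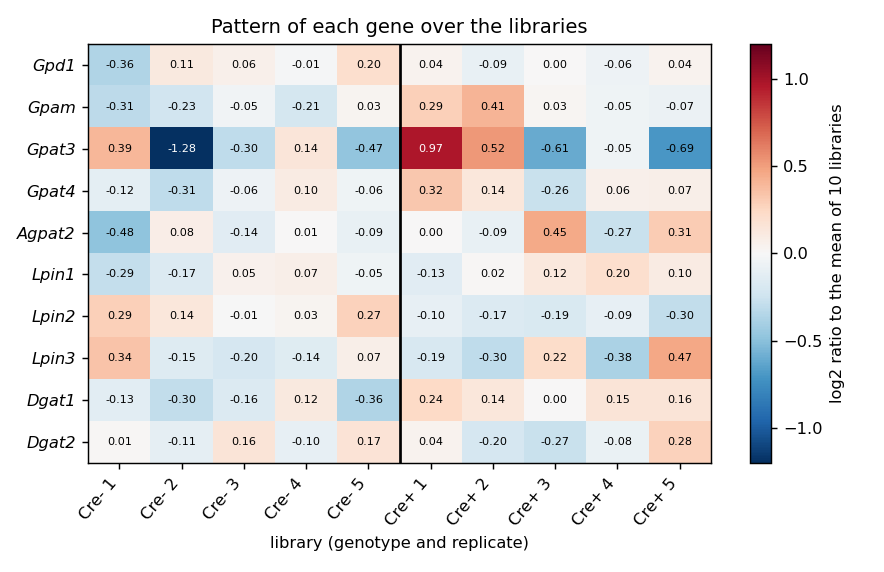
Log2 ratio of each gene's CPM to its mean over the 10 libraries, by library, with the 5 Cre- libraries left and the 5 Cre+ libraries right of the line. Gpat3 has the widest range, from -1.28 in Cre- 2 to 0.97 in Cre+ 1, and Lpin2 is the row with all Cre+ values below all Cre- values.

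Ratios within a library do not depend on how libraries are scaled, and 4 were compared between genotypes by a two-sided exact permutation test, whose smallest p with 5 against 5 is 0.00794. The log2 ratio of Dgat1 to Dgat2 CPM was -3.14, -3.19, -3.32, -2.79 and -3.53 in Cre- 1 to 5 and -2.80, -2.66, -2.73, -2.77 and -3.13 in Cre+ 1 to 5. Cre- 4 reached the level of the Cre+ mice and Cre+ 5 that of the Cre- mice. The difference was 0.37 (-3.19 ± 0.27 and -2.82 ± 0.18, SD, n = 5 each, exact permutation p = 0.0238, adjusted over the 4 ratios p = 0.0952), and it was 0.29 to 0.48 when single libraries were left out. As a share of DGAT CPM per kb, Dgat1 was 10.03% ± 1.74 (SD, n = 5) in Cre- and 12.6% ± 1.29 in Cre+ mice. The log2 ratio of Gpd1 to Gpam was 3.67 ± 0.14 (SD, n = 5) in Cre- and 3.39 ± 0.24 (SD, n = 5) in Cre+ mice, a difference of -0.28 (exact permutation p = 0.0556, adjusted p = 0.111). Gpd1 is an enzyme that makes glycerol-3-phosphate and Gpam an enzyme that uses it, but neither is the only such enzyme. Cre+ values of the Gpd1 to Gpam ratio were 3.27, 3.02, 3.50, 3.51 and 3.63, of which Cre+ 1 and Cre+ 2 lay below the lowest Cre- mouse (3.47). The share of Gpam among GPAT genes differed by 1.94 percentage points (exact permutation p = 0.381, adjusted p = 0.381) and that of Lpin1 among lipins by 0.777 percentage points (exact permutation p = 0.127, adjusted p = 0.169). The Gpam share difference was 0.871 without Cre- 4, 0.864 without Cre+ 3, 1.06 without Cre+ 2 and 1.24 without Cre- 1, against 3.36 without Cre- 2 and Cre+ 4 and 5.86 without the 3 lettered Cre+ libraries, and that of Lpin1 was 0.404 without Cre- 1. By CPM without division by length, the Lpin1 share differed by 0.775 percentage points (exact permutation p = 0.0397, adjusted p = 0.0741). None of the 4 ratios passed the threshold after adjustment.

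**Figure D5:**
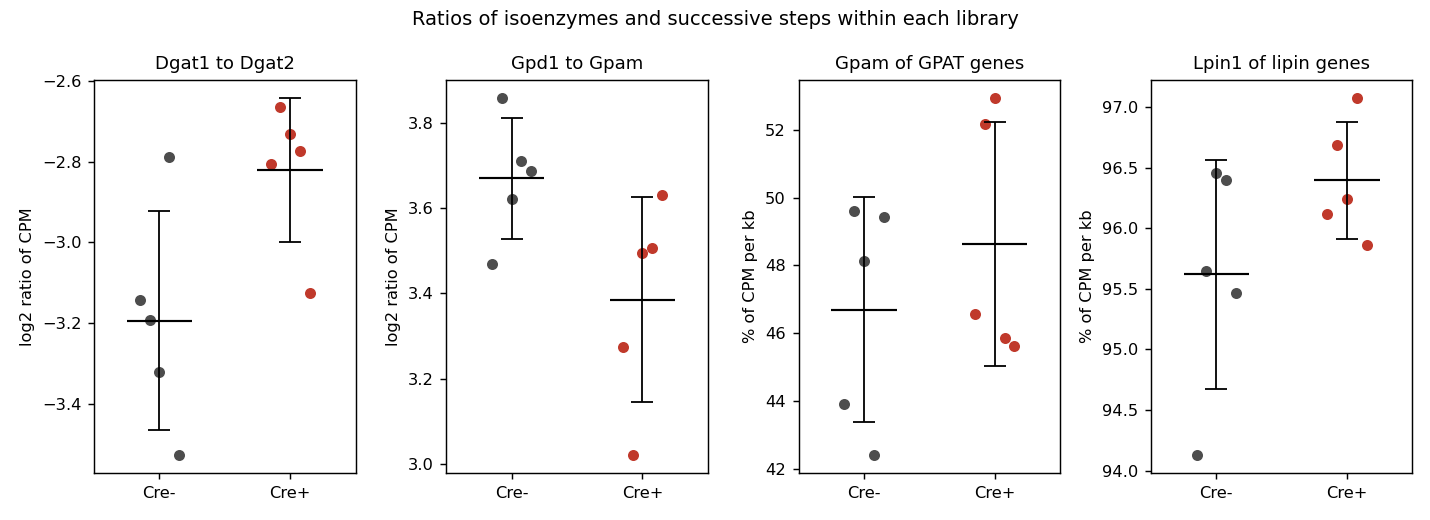
Log2 ratios of CPM (Dgat1 to Dgat2, Gpd1 to Gpam) and shares of CPM per kb (Gpam of the 3 GPAT genes, Lpin1 of the 3 lipins, in percent) in each Cre- (grey) and Cre+ (red) library, with the mean ± SD (n = 5). Axes do not start at 0, the Dgat1 to Dgat2 ratio is higher and the Gpd1 to Gpam ratio lower on average in Cre+ mice, and the groups overlap in all 4 panels.

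Other genes of lipids built on glycerol, not only those that handle the pathway's intermediates, were split in direction. In a list of 32 such genes, of which 31 were tested (Fitm1 was too low), edgeR called 0 at an adjusted p under 0.05. Before adjustment 4 had a p under 0.05 with higher and 3 with lower levels in Cre+ mice, where 6.4% and 5.95% of all genes tested did, and the log2 fold changes were above 0 for 15 and below 0 for 16, with a median of -0.01. DESeq2 called 1, against 2.28% of all genes it tested, namely Plpp1, which encodes a lipid phosphate phosphatase. Levels of Plpp1 were 12.0 ± 1.34 and 16.6 ± 3.11 CPM (SD, n = 5 each) in Cre- and Cre+ mice. The log2 fold change of Plpp1 was 0.47 (SE 0.13) with an adjusted p of 0.165 by edgeR and 0.0394 by DESeq2, and edgeR called it without Cre+ 4 (0.55, adjusted p = 0.0313) and without Cre- 2 and Cre+ 4 (0.49, adjusted p = 0.0474), settings in which it called 331 and 289 of all genes in place of 29. Next by p were the glycerol channel Aqp7 (172 ± 6.26 and 147 ± 11.4 CPM, SD, n = 5 each, log2 fold change -0.23, adjusted p = 0.194 by edgeR), Pcyt2 of phosphatidylethanolamine synthesis (101 ± 16.1 and 130.3 ± 15.1 CPM, 0.36, adjusted p = 0.210 by edgeR) and the choline kinase Chka (17.4 ± 4.32 and 11.6 ± 2.94 CPM, -0.59, adjusted p = 0.259 by edgeR). Glycerol kinase (Gk), which recycles glycerol into the pathway, had a log2 fold change of 0.11 (adjusted p = 0.906 by edgeR), and Pck1 of glyceroneogenesis one of -0.07 (adjusted p = 0.864 by edgeR), and both were named after their values had been seen.

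For each of the 10 genes the closest pattern over the 10 libraries was sought among all genes tested, as the root mean square difference of log2 CPM centred on each gene's mean. Closest to Gpam was Lurap1 (0.09), to Dgat1 Adrm1 and Wdr73 (both 0.07), and to Lpin2 Vezf1 and Txnl4a (both 0.08). Gpat4 was nearest to Rnf44 (0.05) and Mul1 (0.06), Agpat2 to Casp9 (0.08) and Echdc2 (0.09), Lpin1 to Dnaaf5 and Trim26 (both 0.07), Gpd1 to Mto1 and Plekhm1 (both 0.06), and Dgat2 to Hpcal4 (0.08) and Dnmt3a (0.10). Gpat3 was nearest to the overlapping 4930458D05Rik (0.27) and Slc22a15 (0.29), and Lpin3 to Gm15411 (0.15) and Foxp3 (0.17, at a mean of 0.191 CPM). These distances grow with a gene's own variation over the libraries, which as a root mean square was 0.63 for Gpat3, 0.27 for Lpin3 and 0.21 for Gpam, so they do not rank the 10 genes by how close their matches are. No gene of the 10 was among the closest 2 of another. The distances describe 10 libraries of both genotypes at once and carry no test.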

How the data were processed

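RNA of iBAT was poly(A)-selected and sequenced from 5 mice per genotype, grouped from the labels, and each numbered sample was taken as 1 mouse, after the study. Per the processing notes, the authors used Trimmomatic for trimming and STAR for alignment to GRCm39 (both without a stated version) and deposited raw counts per gene from featureCounts 2.0.1 and GENCODE M28. In these deposited counts mates were counted singly, strand was ignored and reads with several alignments were dropped.

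The members and gene lists were chosen with earlier results of these data known. Symbols matched 52081 of 55414 genes (94.0%). Counts were fitted with edgeR 4.0.16 in R 4.3.3 (TMM, filterByExpr with minimum count 10 and minimum total 15, quasi-likelihood F test), and p-values were adjusted by Benjamini-Hochberg over all 17690 genes tested. Intervals use the moderated degrees of freedom. Log2 CPM have a prior count of 2. DESeq2 1.42.0 and limma 3.58.1 voom were alternatives, as were other scalings and filters, a replicate block and left-out libraries. All voom results used sample quality weights, by which libraries can count unequally. Permutation tests used SciPy 1.17.1. By rule the text names all 10 genes, RetSat, the 4 listed pathway genes with the smallest p and the 2 closest profiles per gene, of which 1 is not reported here. Gk, Pck1, Fitm1, Gpat2 and overlapping genes were added outside this rule. The scripts were tested on simulated data. Promoter windows come from RefSeq on GRCm38.p6, and other coordinates are those of the files.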

Additional observations from a re-analysis of the deposited data

How the results depend on the processing

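Over 20 alternatives, 187 of 200 log2 fold changes of the 10 genes kept their direction and side of the threshold and 12 turned sign, all of them of Lpin3, Gpd1 and Dgat2. DESeq2 called 1 of the 10 genes, Lpin2 (log2 fold change -0.32), and the other alternatives 0. Lpin3 turned to -0.020 with a replicate block, to -0.019 without the 3 lettered Cre+ libraries, and ranged from -0.14 to 0.10 when single libraries were left out. With total counts as library sizes Dgat2 became 0.0099 and Gpd1 0.051. Gpd1 was 0.016 without Cre- 2 and Cre+ 4 and ranged from -0.10 to 0.029 over left-out libraries. Of all genes, 29 were called by edgeR, 393 by DESeq2, 148 by voom, 92 without a filter on low counts, 289 without Cre- 2 and Cre+ 4, and 9 to 331 with single libraries left out (331 without Cre+ 4, 13, 15, 12 and 11 without Cre- 1, 3, 4 and 5, and 9 and 10 without Cre+ 1 and 5). In the pathway list 1 gene was called by DESeq2, 1 without Cre- 2 and Cre+ 4, and 0 to 1 with single libraries left out. Of the 9 neighbouring levels 7 differed, 7 by CPM without division by length (in another order), and 0 in Cre- mice alone, where 5 libraries cannot reach the threshold. Apart from that, and from filters and left-out libraries, whose construction changes the genes or samples tested, the cause was not tested.

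No label says whether the replicate numbers pair the mice, and the correlations given here carry no test, so they cannot decide it. Deviations of same-numbered mice correlated at 0.18, -0.11, 0.15, -0.20 and 0.22 for numbers 1 to 5, and 2 of 5 mice matched their own number best. With the replicate block edgeR called 23 genes and 0 of the 10, and the paired exact permutation test of the Dgat1 to Dgat2 ratio gave p = 0.0625, the smallest it can give. At least 345 counts stood behind each value of the 10 genes, and all intervals rest on 5 mice per genotype.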
